A study of Mus musculus with 12 samples.

Results

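The genes described here are the writers and erasers of N6-methyladenosine (m6A) in mRNA. They were chosen by name, as the rows whose Ensembl identifier maps to Mettl3, Mettl14, Wtap, Virma, Rbm15, Rbm15b, Zc3h13, Cbll1, Fto and Alkbh5, and all 10 were present among the 12591 genes of the expression table. RNA was sequenced from PER2::LUC mouse embryonic fibroblasts of a C57 background, a clock reporter line in which PER2 is fused to luciferase, with 3 culture dishes in each of 4 groups. CTL dishes received 3.3 mM HCl, the solvent of adenine, and the other dishes received the same HCl together with 10 µM DZ (deazaneplanocin A, an inhibitor of the S-adenosylhomocysteine hydrolase AHCY), 1 mM adenine or 1 mM S-adenosylmethionine (SAM), each for 24 h on confluent cells. All 9 fibroblast markers examined were in the table, and their summed level was 14.42 to 14.45 log2 CPM in CTL, 14.76 to 14.79 with DZ, 14.59 to 14.72 with adenine and 14.0 to 14.11 with SAM, higher with DZ and adenine and lower with SAM than in CTL. Of 5 leukocyte markers 1 was present, Cd68, whose level was 1.6 to 2.0 log2 CPM in CTL, 1.45 to 1.92 with DZ, 3.44 to 3.63 with adenine and 3.96 to 4.14 with SAM, while Ptprc, Adgre1, Cd3e and Itgam were not listed, nor were any of the 4 endothelial or 5 epithelial markers. The part of these marker differences in the values below was not tested. The table lists only genes that reached 1 CPM (a count scaled to library size) in every library, and each library held 45649534 to 56789090 reads on those genes.

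m6A is deposited on nuclear mRNA by a large methyltransferase complex. METTL3 is the subunit that transfers the methyl group from SAM, METTL14 is its inactive partner that holds the RNA, WTAP brings the pair to nuclear speckles, and VIRMA, RBM15 or RBM15B, ZC3H13 and CBLL1 (HAKAI) form the regulatory part, in which the RBM15 proteins bind RNA and direct methylation to certain transcripts. FTO and ALKBH5 are iron and 2-oxoglutarate dependent dioxygenases that remove the methyl group. S-adenosylhomocysteine, the product of every SAM-dependent methylation, inhibits methyltransferases unless AHCY degrades it, a step that DZ blocks. The values below are amounts of mRNA, not of protein, enzyme activity or m6A. In RNA from whole dishes, fewer cells of a type and less RNA per cell cannot be told apart.

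Levels are given as log2 CPM, so that a difference of 1 is a doubling, and errors are SD over 3 dishes. A gene was called changed when its false discovery rate (FDR) over all genes was under 0.01 in limma's moderated test, and every adjusted p below comes from that fit. Under DZ 4 of the 10 genes were called, all higher, where 45.9% of all genes were called, 22.6% higher and 23.4% lower. Under adenine 4 were called, Virma and Rbm15 higher and Rbm15b and Alkbh5 lower, against 61.6% of all genes, 30.6% higher and 31.0% lower. Under SAM 8 were called, 3 higher and 5 lower, against 69.3% of all genes, 33.7% higher and 35.7% lower. On the log2 scale and regardless of sign, the 10 genes had a median change of 0.117 with DZ, 0.108 with adenine and 0.179 with SAM, and all genes one of 0.18, 0.265 and 0.343. The 3 comparisons share the CTL dishes, so the values are given side by side.

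**Figure D1:**
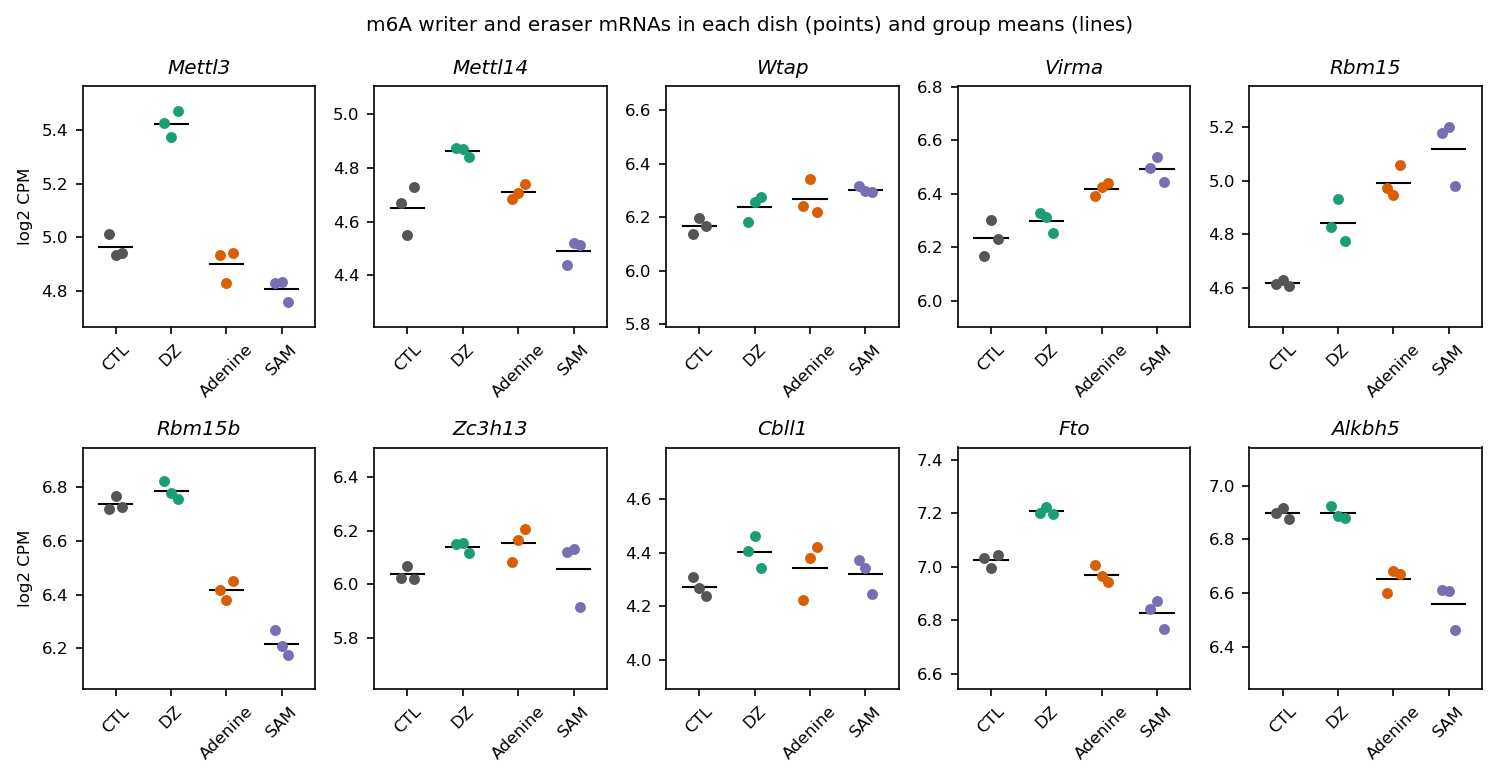
Level of each writer and eraser mRNA (y axis, log2 CPM, each panel spanning the same height) in the 3 dishes (points) of CTL, DZ, adenine and SAM (x axis), with the group mean as a line. Mettl3 stood highest in the DZ dishes, Rbm15b and Alkbh5 were lower in the adenine and SAM dishes than in CTL, and Rbm15 was higher in the dishes of every treatment.

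Mettl3, the catalytic subunit, had the widest range of group means among the members, 0.62 on the log2 scale, and it was highest with DZ. Rbm15b followed with 0.57, and this order was taken only with the deposited scaling. The Mettl3 levels were 5.01, 4.93 and 4.94 log2 CPM in the CTL dishes and 5.43, 5.38 and 5.47 in the DZ dishes. They were 4.93, 4.83 and 4.94 with adenine and 4.83, 4.83 and 4.76 with SAM. Every DZ dish stood above every other dish, and every SAM dish stood below every CTL dish. Mettl3 rose 1.38-fold with DZ (log2 fold change 0.46, SE 0.0463, adjusted p = 7.53e-07). With adenine its log2 fold change was -0.06 (95% confidence interval -0.16 to 0.04, adjusted p = 0.251). With SAM it fell by 10.2% (log2 fold change -0.16, adjusted p = 0.00668), a call that was lost when read totals were used without scaling factors (-0.03, adjusted p = 0.531), in a model of CTL and SAM alone (adjusted p = 0.0147) and on leaving out any 1 of the CTL or SAM dishes other than CTL replicate 2 (adjusted p from 0.0104 without SAM replicate 2 to 0.0338 without CTL replicate 1). The gene lies on chromosome 14 (52531551 to 52542608, minus strand, GRCm39). In GENCODE vM39, 2308 of the 6765 bases of its merged exons are also exon of Tox4 on the opposite strand. The log2 fold changes of Tox4 were 0.12, 0.05 and 0.26 with DZ, adenine and SAM.

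Mettl14, the RNA-binding partner of Mettl3, had levels of 4.67, 4.55 and 4.73 log2 CPM in CTL and 4.87, 4.87 and 4.84 with DZ. The levels were 4.68, 4.71 and 4.74 with adenine and 4.44, 4.52 and 4.51 with SAM. The DZ dishes lay above the CTL dishes and the SAM dishes below them, while the adenine dishes overlapped with CTL. The rise with DZ was 1.16-fold (log2 fold change 0.21, SE 0.051, adjusted p = 0.00239), and it was not called without CTL replicate 2 (0.16, adjusted p = 0.0145). With SAM Mettl14 fell by 10.6% (log2 fold change -0.16, adjusted p = 0.00945). That call was lost with plain read totals (-0.04, adjusted p = 0.493), in a model of CTL and SAM alone (adjusted p = 0.0325), and on leaving out any dish of these groups other than CTL replicate 2 (adjusted p from 0.0127 without SAM replicate 3 to 0.0557 without CTL replicate 3).

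The scaffold genes Wtap and Virma rose with SAM. Wtap, which anchors the catalytic pair, was at 6.14, 6.2 and 6.17 log2 CPM in CTL, 6.18, 6.26 and 6.28 with DZ, 6.24, 6.34 and 6.22 with adenine and 6.32, 6.3 and 6.29 with SAM. The SAM dishes lay above CTL within a narrow range, for a rise of 1.1-fold (log2 fold change 0.14, SE 0.0378, adjusted p = 0.00426). The call on Wtap was lost when each library was centred on its median (0.1, adjusted p = 0.0287) and on leaving out CTL replicate 1 or 3 or SAM replicate 1 or 2 (adjusted p 0.0111 to 0.0214). With adenine every dish also lay above CTL, with a log2 fold change of 0.1 (95% confidence interval 0.02 to 0.18, adjusted p = 0.0269) that was called with plain read totals (0.16, adjusted p = 0.00101). A processed pseudogene, Gm14292, is 99.3% identical to the Wtap transcript over 452 bases and was listed at a mean of 2.66 log2 CPM, with log2 fold changes of -0.01, 0.0 and -0.12 with DZ, adenine and SAM. How reads shared by both were counted is not given in the sources used here.

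Virma, the largest subunit and the scaffold of the regulatory part, was at 6.17, 6.3 and 6.23 log2 CPM in CTL and 6.33, 6.31 and 6.25 with DZ. It was at 6.39, 6.43 and 6.44 with adenine and 6.5, 6.54 and 6.44 with SAM. All adenine and SAM dishes lay above CTL, while DZ overlapped with it. Virma rose 1.14-fold with adenine (log2 fold change 0.19, SE 0.0388, adjusted p = 0.000514) and 1.2-fold with SAM (0.26, adjusted p = 1.8e-05).

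Rbm15 and Rbm15b, paralogs that fill the same place in the complex, moved in opposite directions with adenine and SAM. Rbm15 was at 4.61, 4.63 and 4.61 log2 CPM in CTL, 4.83, 4.93 and 4.77 with DZ, 4.97, 4.95 and 5.06 with adenine and 5.18, 5.2 and 4.98 with SAM. No treated dish overlapped with CTL. Rbm15 rose 1.17-fold with DZ (log2 fold change 0.23, SE 0.0599, adjusted p = 0.00468), 1.3-fold with adenine (0.38, adjusted p = 4.23e-05) and 1.42-fold with SAM (0.5, adjusted p = 1.51e-06). The call under DZ was lost on leaving out any CTL dish, DZ replicate 1 or DZ replicate 2 (adjusted p 0.0106 to 0.0287), and the calls under adenine and SAM were kept without any 1 dish.

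Rbm15b was at 6.72, 6.77 and 6.73 log2 CPM in CTL and 6.82, 6.78 and 6.76 with DZ. It was at 6.42, 6.38 and 6.45 with adenine and 6.27, 6.21 and 6.18 with SAM, so that the CTL, adenine and SAM dishes formed 3 separate ranges. It fell with adenine to 0.8-fold of CTL (log2 fold change -0.32, SE 0.0334, adjusted p = 4.14e-07) and fell by 30.3% with SAM (log2 fold change -0.52, adjusted p = 9.52e-10). With DZ the log2 fold change was 0.05 (95% confidence interval -0.02 to 0.12, adjusted p = 0.226). Both falls were called under every scaling tried and without any 1 dish. Rbm15b is a gene of 1 exon on chromosome 9 (106758117 to 106764627, minus strand, GRCm39). In GENCODE vM39, 3962 of its 6511 bases are also exon of Manf on the same strand. Manf rose in all 3 comparisons (log2 fold changes 0.3, 0.26 and 0.29, adjusted p = 0.000191, 0.000441 and 0.000156), opposite to Rbm15b under adenine and SAM. How reads in the shared bases were assigned is not given in the sources used here. Whether this overlap is also in the earlier release that the authors used was not checked.

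Taken as a difference within each dish, a measure chosen after these values were seen and given without a test, Rbm15 was below Rbm15b by a log2 difference of -2.12 ± 0.0162 in CTL, -1.94 ± 0.0831 with DZ, -1.42 ± 0.0298 with adenine and -1.1 ± 0.0935 with SAM (n = 3). The read ratio of Rbm15 to Rbm15b was thus 1.62-fold that of CTL with adenine and 2.03-fold with SAM. A difference within a dish does not depend on the scaling of the library, but it is not corrected for transcript length.

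Zc3h13, which keeps the complex in the nucleus, and Cbll1, a RING domain protein, were not called in any of the 3 comparisons. Zc3h13 was at 6.02, 6.07 and 6.02 log2 CPM in CTL, 6.15, 6.15 and 6.12 with DZ, 6.09, 6.17 and 6.21 with adenine and 6.12, 6.13 and 5.91 with SAM. Its DZ and adenine dishes lay above CTL, with log2 fold changes of 0.1 (95% confidence interval -0.00531 to 0.21, adjusted p = 0.0941) and 0.12 (0.00805 to 0.22, adjusted p = 0.0523), and the latter was called with plain read totals (0.18, adjusted p = 0.00451). Cbll1, the least abundant member by reads, was at 4.31, 4.27 and 4.24 log2 CPM in CTL, 4.41, 4.46 and 4.34 with DZ, 4.22, 4.38 and 4.42 with adenine and 4.37, 4.34 and 4.25 with SAM. The DZ dishes lay above CTL (log2 fold change 0.13, 95% confidence interval 0.002 to 0.26, adjusted p = 0.0754) and the others overlapped with it.

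**Figure D2:**
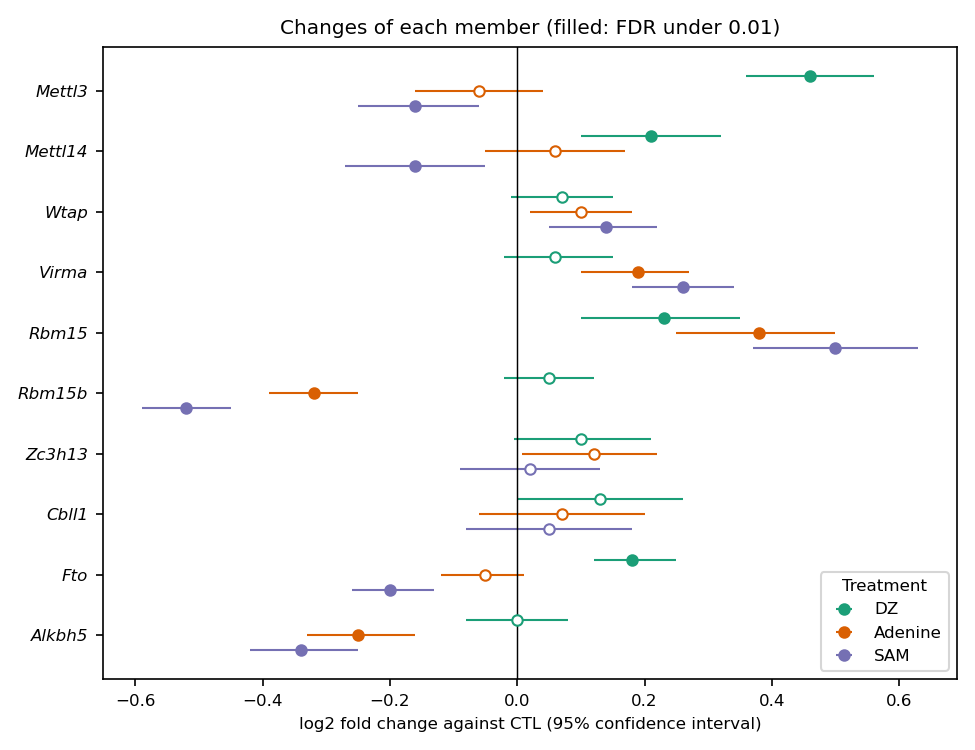
Log2 fold change of each gene against CTL (x axis) with its 95% confidence interval (bars) for DZ, adenine and SAM, filled where the FDR was under 0.01. Rbm15 lies right of 0 in all 3 comparisons, Rbm15b and Alkbh5 lie left of 0 with adenine and SAM, and Mettl3, Mettl14 and Fto lie right of 0 with DZ and left of 0 with SAM.

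The eraser genes were both lower with SAM. Fto was at 7.03, 7.0 and 7.04 log2 CPM in CTL, 7.2, 7.22 and 7.2 with DZ, 7.01, 6.97 and 6.94 with adenine and 6.84, 6.87 and 6.77 with SAM. The DZ dishes lay above CTL, the SAM dishes below, and the adenine dishes overlapped with CTL. Fto rose 1.14-fold with DZ (log2 fold change 0.18, SE 0.0316, adjusted p = 0.000159). With SAM it fell by 12.7% (log2 fold change -0.2, adjusted p = 3.78e-05), a call that was lost with plain read totals (-0.07, adjusted p = 0.0382). With adenine the log2 fold change was -0.05 (95% confidence interval -0.12 to 0.01, adjusted p = 0.151), and it became a called fall when libraries were centred on their median (-0.1, adjusted p = 0.00702).

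Alkbh5 was at 6.9, 6.92 and 6.88 log2 CPM in CTL and 6.93, 6.89 and 6.88 with DZ, 6.6, 6.68 and 6.67 with adenine and 6.61, 6.61 and 6.46 with SAM. The DZ dishes overlapped with CTL, and every adenine and SAM dish lay below it. Alkbh5 fell by 15.7% with adenine (log2 fold change -0.25, SE 0.0393, adjusted p = 4.14e-05) and by 20.9% with SAM (log2 fold change -0.34, adjusted p = 1.15e-06), both under every scaling tried. With DZ its log2 fold change was -0.000249 (95% confidence interval -0.08 to 0.08, adjusted p = 0.997).

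The scaling of the libraries bears on the small falls with SAM. With plain read totals, all genes together had a median of 0.11 in SAM against CTL on the log2 scale, in place of -0.02, and the share of called genes that were higher moved from 48.5% to 61.2%. Mettl3, Mettl14 and Fto were no longer called, which left 5 members called (Wtap, Virma and Rbm15 higher, Rbm15b and Alkbh5 lower). Of all 12591 genes, 8924 were called with SAM under plain read totals, against 8731 with the deposited scaling. In SAM against adenine the same share moved from 48.6% to 63.2%.

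Differences of 2 genes within a dish are not corrected for transcript length, so only their change between groups is compared. In log2 CPM, Mettl3 minus Mettl14 was 0.31 ± 0.089 in CTL and 0.56 ± 0.0632 with DZ, a change of 0.25 (exact permutation test, two-sided, p = 0.1). The difference was 0.19 ± 0.0641 with adenine (p = 0.2 in the same exact permutation test) and 0.32 ± 0.0719 with SAM (p = 0.9). Fto minus Alkbh5 was 0.13 ± 0.0449 in CTL, 0.31 ± 0.0303 with DZ, 0.32 ± 0.0738 with adenine and 0.27 ± 0.0385 with SAM. In each treatment all 3 dishes had a larger Fto to Alkbh5 difference than every CTL dish (exact permutation p = 0.1 each). With 3 dishes against 3, 0.1 is the smallest p that this test can give, so the design could not reach 0.05.

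**Figure D3:**
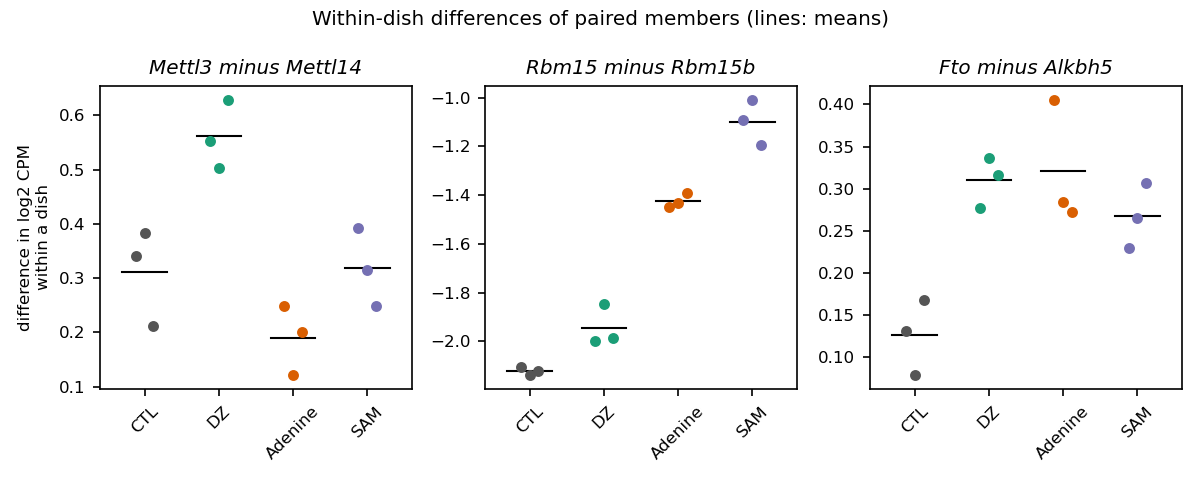
Differences in log2 CPM within each dish (y axis) for Mettl3 minus Mettl14, Rbm15 minus Rbm15b and Fto minus Alkbh5, by group (x axis), with points for dishes and lines for means of 3. Rbm15 minus Rbm15b climbs from -2.12 in CTL to -1.1 with SAM, and Fto minus Alkbh5 is above the CTL dishes in every treated dish.

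The treatments were also compared with each other. In SAM against adenine 3 members were called, all lower, where 42.7% of all genes were called, 20.8% higher and 22.0% lower. Rbm15b was lower with SAM by a log2 difference of -0.2 (adjusted p = 0.000141), Mettl14 by -0.22 (adjusted p = 0.00186) and Fto by -0.14 (adjusted p = 0.0013), and the calls on Mettl14 and Fto were lost with plain read totals (-0.16 and -0.08, adjusted p = 0.0142 and 0.0304). The call on Mettl14 was also lost without SAM replicate 1 (-0.2, adjusted p = 0.0105). In DZ against adenine 4 were called, all higher with DZ, against 64.3% of all genes, 32.1% higher and 32.2% lower. They were Mettl3 (log2 difference 0.52, adjusted p = 6.6e-08), Rbm15b (0.37, adjusted p = 8.22e-08), Fto (0.24, adjusted p = 6.8e-06) and Alkbh5 (0.25, adjusted p = 4.05e-05). In DZ against SAM 7 were called, 5 higher and 2 lower with DZ, against 69.0% of all genes, 35.0% higher and 34.0% lower. Mettl3 was 1.53-fold higher with DZ than with SAM (log2 difference 0.62, adjusted p = 6.63e-09) and Rbm15b 1.48-fold (0.57, adjusted p = 3.45e-10). Mettl14, Fto and Alkbh5 were higher with DZ by 0.37, 0.38 and 0.34, while Rbm15 and Virma were lower by -0.28 and -0.19.

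Per kilobase of the canonical transcript, the eraser Fto and the scaffold Wtap were the most abundant members in CTL, at 34.5 ± 0.607 and 30.1 ± 0.625 RPKM (CPM divided by kilobases of transcript). They were followed by Alkbh5 (19.7 ± 0.276), Rbm15b (16.4 ± 0.296), Mettl3 (15.3 ± 0.451) and Virma (11.5 ± 0.536 RPKM). Mettl14 (9.16 ± 0.577), Zc3h13 (8.43 ± 0.161), Cbll1 (4.81 ± 0.122) and Rbm15 (2.96 ± 0.0244) were lowest, and among neighbours in this order only Mettl14 and Zc3h13 overlapped between dishes. Mettl3 reached 21.1 ± 0.697 with DZ, above Alkbh5 (19.7 ± 0.333), while in CTL it stood below Alkbh5 and Rbm15b. With SAM Wtap (33.0 ± 0.287) stood above Fto (30.2 ± 1.11), the reverse of CTL, and Rbm15b (11.4 ± 0.372) stood below Virma (13.8 ± 0.455). These levels depend on the length used, because Fto, Wtap, Mettl14 and Mettl3 have long alternative exons. Over all merged exons Alkbh5 was highest in CTL (18.9) and Fto and Wtap stood at 8.47 and 9.08 RPKM.

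**Figure D4:**
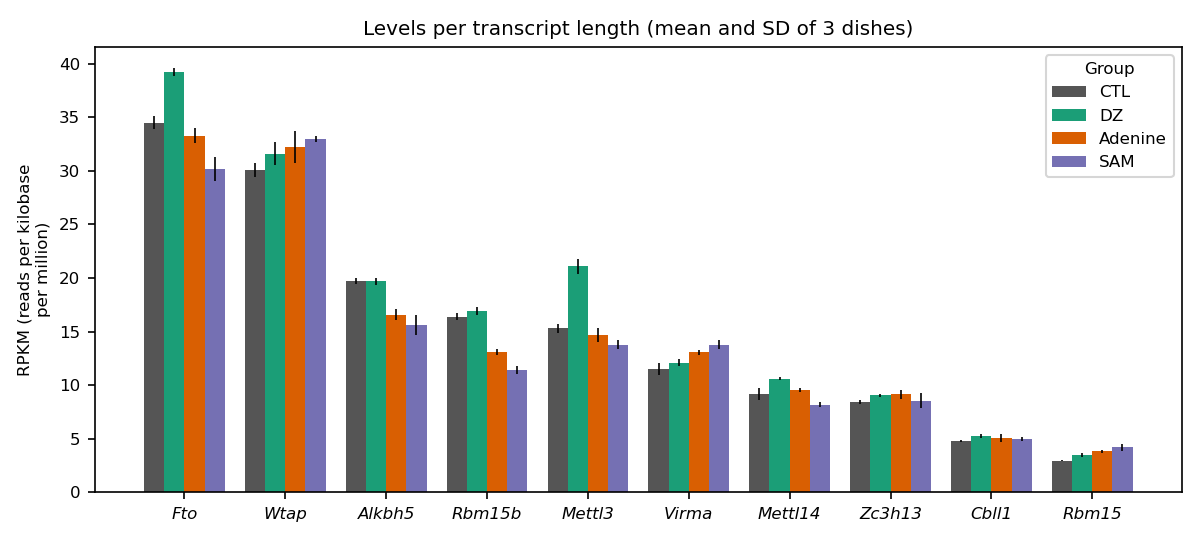
RPKM over the canonical transcript, reads per kilobase scaled to library size (y axis, bars from 0, mean with SD of 3 dishes) for each member, ordered by its CTL level, in the 4 groups. Fto and Wtap lead in every group, and Rbm15 is lowest in every group despite its rise.

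The gene whose levels followed those of Mettl3 most closely over the 12 libraries was Ogfr (Pearson r = 0.99), followed by Sec14l1 (r = 0.983) and Gpatch4 (r = 0.98). The 12 points fall into 4 groups that share treatment, so these values describe the pattern of group means. Mean levels of Ogfr were 6.12, 6.83, 5.97 and 5.88 log2 CPM in CTL, DZ, adenine and SAM. Gpatch4 stood at 4.96, 5.75, 4.85 and 4.59 in the same order.

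A list of 27 further genes, all in the table, is called the other pathway genes here. It holds 6 other adenosine methyltransferases and partners, 14 readers and 7 other AlkB dioxygenases. The genes were listed by family or role, and not all of them act on m6A in mRNA. With DZ 7 of the 27 were called, 3 higher and 4 lower. With adenine 11 were called, 4 higher and 7 lower, and with SAM 17, 7 higher and 10 lower. These counts stand beside the 45.9%, 61.6% and 69.3% of all genes given above. The AlkB dioxygenases gave no call with DZ, 2 lower with adenine and 3 lower with SAM.

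Mettl16, which methylates U6 snRNA and the mRNA of the SAM synthetase Mat2a, rose in all 3 comparisons. Its levels were 5.73, 5.72 and 5.71 log2 CPM in CTL, 6.45, 6.44 and 6.5 with DZ, 5.93, 5.98 and 5.9 with adenine and 6.0, 5.96 and 5.83 with SAM. The rise was 1.68-fold with DZ (log2 fold change 0.75, adjusted p = 1.39e-09), 1.17-fold with adenine (0.22, adjusted p = 0.000192) and 1.16-fold with SAM (0.22, adjusted p = 0.00021). Trmt112, an activator of several methyltransferases including METTL5, fell by 24.0% with adenine and fell by 22.7% with SAM (log2 fold changes -0.4 and -0.37, adjusted p = 1.04e-06 and 1.58e-06), and with DZ its log2 fold change was -0.11 (adjusted p = 0.0381).

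Among the readers Rbmx, an RNA-binding protein of splicing, showed the largest change with DZ and with SAM. It was at 5.49, 5.47 and 5.43 log2 CPM in CTL, 4.51, 4.52 and 4.54 with DZ, 4.93, 4.96 and 4.94 with adenine and 4.51, 4.48 and 4.42 with SAM. It fell by 47.7% with DZ, by 30.2% with adenine and by 49.8% with SAM (log2 fold changes -0.94, -0.52 and -0.99, adjusted p = 1.47e-10, 2.03e-08 and 5.2e-12). Rbmx is uncertain, since the retrogene Rbmxl1 is a near copy and the counting of reads between them is not given in the sources used here. Rbmxl1 had log2 fold changes of -0.28 (adjusted p = 4.81e-05), 0.09 (adjusted p = 0.0709) and 0.55 (adjusted p = 1e-08) in the same order.

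Fmr1, which binds mRNA and represses its translation, rose 1.26-fold with DZ, 1.44-fold with adenine and 1.24-fold with SAM (log2 fold changes 0.33, 0.52 and 0.31, adjusted p = 3.12e-05, 1.03e-07 and 2.95e-05). Ythdc2, a YTH domain helicase, fell by 34.8% with adenine and by 26.8% with SAM (log2 fold changes -0.62 and -0.45, adjusted p = 1.94e-07 and 5.23e-06), and its value with DZ was -0.08 (adjusted p = 0.263). Hnrnpa2b1, a nuclear RNA-binding protein, fell with DZ to 0.82-fold of CTL (log2 fold change -0.29, adjusted p = 3.51e-06) and rose 1.2-fold with SAM (0.26, adjusted p = 3.78e-06). Alkbh3, a dioxygenase that repairs alkylated nucleic acids, fell by 24.0% with adenine and fell by 27.6% with SAM (log2 fold changes -0.4 and -0.47, adjusted p = 1.85e-06 and 2.23e-07), and with DZ its value was 0.12 (adjusted p = 0.0379).

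The members' own transcripts differ in how often they hold GGACT, the most typical form of the sequence that METTL3 methylates. Canonical transcripts held 2.09 GGACT per kilobase for Wtap, 1.97 for Mettl3, 1.82 for Alkbh5, 1.41 for Zc3h13 and 1.25 for Cbll1. Those of Mettl14, Virma, Fto, Rbm15b and Rbm15 held 1.09, 1.07, 1.06, 0.922 and 0.604 per kilobase. The median of 10948 protein-coding genes was 1.04 per kilobase, with quartiles of 0.657 and 1.47. A match of letters is a description and not a measured m6A site.

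Rbm15 and Virma are the members that rose with both adenine and SAM, and the 250 bases before their transcription starts are given for that reason, read from GRCm39 on the strand of the gene. Capitals mark CG dinucleotides, of which the Rbm15 window holds 22 and the Virma window 20, where the median of 10948 such windows was 13. Windows of the other members held 26 (Wtap), 20 (Zc3h13), 18 (Cbll1), 15 (Fto), 13 (Alkbh5), 12 (Mettl3) and 7 (Mettl14 and Rbm15b). The windows of Wtap and Alkbh5 lie inside the annotated span of the gene, and that of Mettl3 overlaps it. High counts were thus not particular to the members that rose with both.
Rbm15, chr3:107241290-107241539, minus strand: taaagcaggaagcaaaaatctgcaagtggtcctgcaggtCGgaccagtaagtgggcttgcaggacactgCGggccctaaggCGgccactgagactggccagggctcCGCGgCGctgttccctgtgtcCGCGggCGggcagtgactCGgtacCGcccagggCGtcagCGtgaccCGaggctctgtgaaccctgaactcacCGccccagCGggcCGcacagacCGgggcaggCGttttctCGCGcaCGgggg
Virma, chr4:11485698-11485947, plus strand: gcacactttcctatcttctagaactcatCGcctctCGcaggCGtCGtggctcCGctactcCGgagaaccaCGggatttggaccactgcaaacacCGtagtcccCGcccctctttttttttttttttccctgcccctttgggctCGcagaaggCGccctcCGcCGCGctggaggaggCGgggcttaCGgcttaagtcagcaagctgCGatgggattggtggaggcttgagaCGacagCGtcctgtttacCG
The Rbm15 and Virma windows were 67.2% and 58.8% GC, against a median of 57.2%. In the windows of all 10 members, 6 motifs were searched on both strands: CACGTG (E-box), TGACGTCA (cyclic AMP response element), TGATGNAA (C/EBP-ATF element), CGCATGCG (core of the NRF1 site) and TTTCGCGC and TTTGGCGC (E2F). None was found in any member's window, and the shares of all windows that held them were 8.07%, 2.16%, 2.03%, 2.45%, 0.411% and 0.758%. No match says only that these letters are absent from these 250 bases.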

How the data were processed

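Total RNA from 12 dishes (3 per group) was poly(A) selected, prepared with a stranded kit and sequenced. According to the study's methods and the submitters' processing notes, the authors trimmed reads with Trimmomatic, aligned them to GRCm39 with HISAT2, quantified them with StringTie and removed in edgeR every gene under 1 CPM in any library. The deposited values are log2 CPM on normalized library sizes with a prior count of 2, read from the values, since all of them returned whole reads within 0.1. The strand setting of the counting is not given in the sources used here. Reads on the listed genes numbered 45649534 to 56789090 per library, as recovered from the values. Reads on genes that were removed are not among them. The spread of a level is given by the SD over dishes.

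Values were fitted with limma 3.58.1 (R 4.3.3) in 1 model of 4 groups with a variance trend, Benjamini-Hochberg adjustment over 12591 genes and an FDR threshold of 0.01. The test was made on the deposited log2 values, and limma voom on the whole reads was an alternative. On 5 simulated tables with 200 changed genes per treatment, the comparisons with CTL recovered 39.3% of log2 changes of 0.25, 78.5% of 0.5 and 96.7% of 1, and 0.974% of calls were false. In the data far more genes were called, 5782 with DZ, 7753 with adenine and 8731 with SAM. The adjustment is stricter where fewer genes change, so these shares do not give the recovery in the data. Symbols, lengths and coordinates came from GENCODE vM39, which held 12575 of the 12591 identifiers. The authors' alignment was guided by an earlier GENCODE release. Whether the overlaps and copies named here are in that release was not checked. Levels per kilobase used whole reads, the canonical transcript length and the normalized library size. Copies of members were searched with blastn 2.17.0 (at least 90% identity over 300 bases).

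Members and lists were chosen with earlier results of these data known. The genes named are the 10 members, listed genes that overlap or copy them, Mettl16, up to 3 other pathway genes with the smallest adjusted p in each comparison with CTL, and the 3 genes most correlated with the member whose group means range widest. Beside Tox4 and Manf, Sec24d shares 192 exon bases with Mettl14, Dcaf1 75 with Rbm15b and Rpgrip1l 64 with Fto, each on the opposite strand. With DZ, adenine and SAM, log2 fold changes were -0.14, 0.46 and 0.46 for Sec24d and 0.06, -0.21 and -0.15 for Dcaf1. Those of Rpgrip1l were -0.3, 0.28 and 0.17. Rbmxl1 was named after values were seen. Beside the 5 leukocyte markers given, 1 further marker of the list as first chosen is not reported here. The dishes come from 1 line, so p-values measure the spread between dishes. Alternatives were other scalings, pseudocount, filters, thresholds, a separate model, a replicate block and leaving out each dish.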

Additional observations from a re-analysis of the deposited data

How the results depend on the processing

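Of 480 values of the members under alternatives to the comparisons with CTL, 435 kept their side of the threshold, 41 were no longer called and 4 became called, and no called value changed direction. A minimum change of 0.5 on the log2 scale left 0 members called with DZ, 0 with adenine, 2 with SAM (Rbm15 and Rbm15b), 0 in SAM against adenine, 1 in DZ against adenine and 2 in DZ against SAM, and 2, 3, 2, 0, 3 and 4 of the other pathway genes. limma without that minimum gave 4, 4, 8, 3, 4 and 7 members. At an FDR of 0.05, 11 other pathway genes were called with DZ and 7 members in DZ against adenine. The share of all genes called is not given here for the 0.5 minimum, this FDR, left-out dishes or the replicate block. Counts under those settings are therefore not compared with all genes. Plain read totals left 5 members called with SAM and gave 6 with adenine, where Wtap and Zc3h13 were added. With those totals 8924 of all genes were called with SAM and 7836 with adenine, against 8731 and 7753 with the deposited scaling. Leaving out 1 dish gave 2 to 4 members called with DZ (2 without CTL replicate 2) and 5 to 8 with SAM (5 without CTL replicate 1 or 3 or SAM replicate 1 or 2). The Mettl3 minus Mettl14 change with SAM, 0.01, was between -0.04 and 0.04 on leaving out 1 dish, and turned negative without SAM replicate 1 (-0.03) or CTL replicate 3 (-0.04). Leaving out a dish changes both the number of dishes and which dishes remain, and the causes of these changes were not tested.

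Same-numbered dishes did not deviate together (correlations of -0.142 to 0.181, and 5 of 12 libraries correlated best with their own number), so the numbers were not taken as pairs. With a replicate block 4 members were called with DZ, 4 with adenine and 7 with SAM, the last without Mettl14 (adjusted p = 0.0124), and 3, 5 (with Virma added) and 7 in SAM against adenine, DZ against adenine and DZ against SAM. The block changed the direction of no call in these 6 comparisons.

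With merged exon lengths the CTL levels in RPKM were 18.9 for Alkbh5, 16.4 for Rbm15b, 10.1 for Virma, 9.08 for Wtap, 8.47 for Fto, 7.05 for Zc3h13, 4.6 for Mettl3, 4.59 for Cbll1, 2.99 for Mettl14 and 2.16 for Rbm15, the effect of the longer lengths themselves. The fewest reads of any listed gene in a library was 46, and a gene under 1 CPM in any library was not analysed here.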
